A study of Macaca mulatta with 6 samples.

Results

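The study describes the cultured cells of this series as rhesus monkey spermatogonial stem cells (SSCs). Transcripts of the epidermal growth factor (EGF) family were examined in them with and without platelet-derived growth factor (PDGF). The set was chosen by name, with earlier results of these data known. It comprised 9 genes, namely the receptors EGFR, ERBB2 and ERBB3, the ligands HBEGF, EREG, AREG, TGFA and BTC, and the receptor inhibitor ERRFI1. Of these 9 genes, 6 were among the 17795 genes analysed, and all 6 passed the count filter; HBEGF, EREG and BTC were not analysed here. The PDGF+ group comprised 3 bulk RNA sequencing libraries of Macaca mulatta cells cultured in hydrogel droplets with human PDGF, and the PDGF- group comprised 3 libraries of PDGF-free controls. The labels give the tissue of both groups as testis, and place replicate 1 of each group in batch 1 and replicates 2 and 3 in batch 2. Animal age, genotype, donor and time in culture are not given for these libraries, and nothing states that replicates came from separate cultures, so the p-values measure the spread between libraries, which may be technical. The culture medium that the study describes contains human EGF, GDNF, bFGF, LIF and Wnt3a as well as PDGF. Whether the PDGF-free medium was otherwise the same is not stated.

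ERBB receptors are tyrosine kinases of the cell surface that act in pairs. EGFR and ERBB4 bind ligand and signal, ERBB2 has no known ligand and serves as the preferred partner, and ERBB3 binds neuregulins but has little kinase activity of its own. The ligands are made as membrane-anchored precursors and are released by ADAM proteases. AREG and TGFA bind EGFR, and neuregulins bind ERBB3 and ERBB4. In the testis, neuregulin and EGF signals from Sertoli and other somatic cells act on germ cells. ERRFI1 is a cytoplasmic protein that is induced by growth factor signaling, binds the EGFR kinase domain and shuts it off.

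What makes AREG and TGFA members of one family is a short stretch with 6 cysteines at fixed spacing, which folds into the receptor-binding EGF-like domain. The coding sequence of this stretch was taken from the RefSeq transcripts that accompany Mmul_10 and is shown 5′ to 3′, with the cysteine codons in capitals.
AREG: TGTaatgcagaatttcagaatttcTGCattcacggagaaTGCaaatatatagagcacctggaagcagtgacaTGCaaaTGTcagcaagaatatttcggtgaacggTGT
TGFA: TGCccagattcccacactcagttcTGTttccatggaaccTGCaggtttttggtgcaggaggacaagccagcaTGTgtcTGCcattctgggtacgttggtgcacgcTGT
Both stretches span 36 codons with the 6 cysteines at the same positions. They share 51 of 108 bases, and 12 of the 36 codons encode the same residue.

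With PDGF, EGFR and its inhibitor ERRFI1 were higher, by 2.12-fold and 7.31-fold, and no member was called lower. These 2 calls among 6 members stand beside a background of 7.61% of 11539 tested genes called higher, and none of 6 beside 10.7% called lower, in edgeR's quasi-likelihood test at a Benjamini-Hochberg adjusted p under 0.05. At an unadjusted p under 0.05, 1 member was lower in edgeR, 1 in limma-voom and 0 in DESeq2. Blocking on the replicate number, edgeR called 2 members higher and 2 lower, namely ERBB2 and the ERBB3 row, where 60.1% of all genes were called, 31.1% higher and 29.0% lower. With GC and length offsets added to the block, 2 members were higher and 1 lower, the ERBB3 row. There 58.2% of genes were called, 35.1% higher and 23.1% lower. In batch 2 alone 2 members were lower, where 52.8% of genes were called, 26.2% higher and 26.6% lower. With replicates 2 and 3 of each group summed, 1 member was higher and 0 lower, where 5.78% of genes were called, 1.72% higher and 4.06% lower. An edgeR interaction of PDGF and batch passed the threshold for 0 of 11539 genes. Batch 1 holds 1 library of each group, so this test assumes that those libraries vary like the ones of batch 2. In it 526 genes had an unadjusted p under 0.05 and 0 were called with RLE factors. Levels are given as CPM, the reads of a gene scaled by library total and TMM factor, and total counts per library ranged from 10593808 to 14102698 and were higher in PDGF+.

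**Figure D1:**
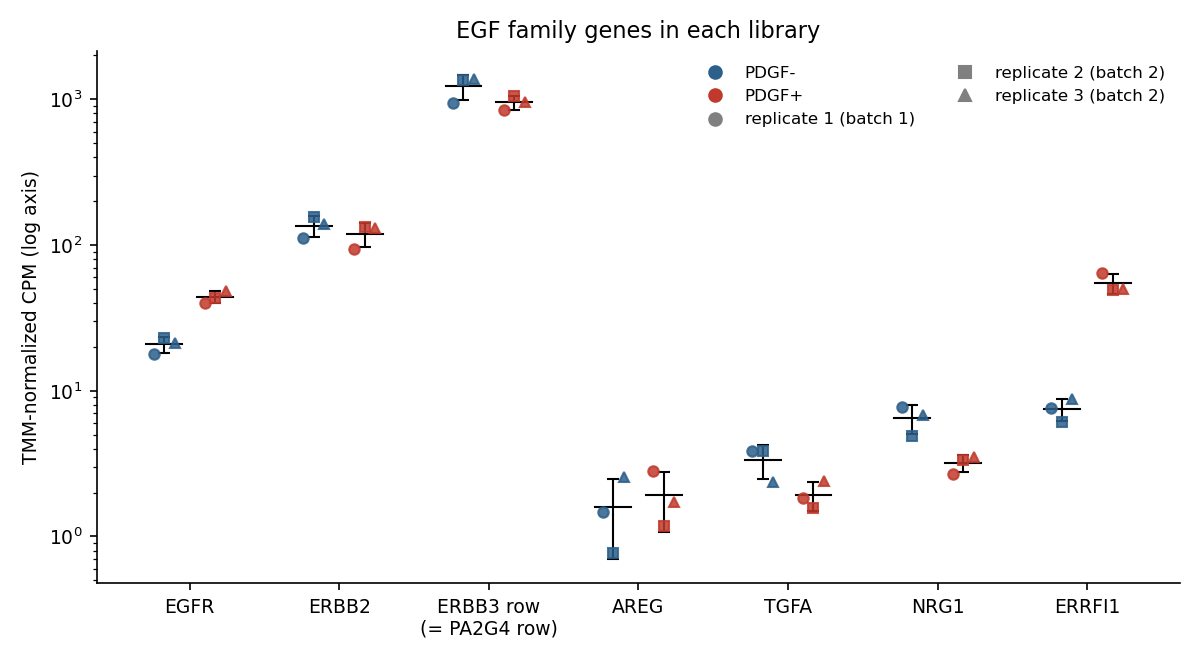
TMM-normalized CPM on a log axis for the 6 members analysed and NRG1, with 1 point for each library, a horizontal line at the mean and a bar for the SD of 3 libraries. The PDGF+ libraries lie above all PDGF- libraries for EGFR (40.2 to 48.4 against 17.99 to 23.1 CPM) and ERRFI1 (49.0 to 64.8 against 6.13 to 8.72 CPM). They lie below them for NRG1. Among all genes tested 18.2% lie above and 19.3% below in this way.

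EGFR, the founding receptor of the family, lies at chr3:60060391-60254099 on the minus strand of Mmul_10, in the RefSeq annotation. It was at 40.2, 43.6 and 48.4 CPM in PDGF+ replicates 1, 2 and 3, and at 17.99, 23.1 and 21.3 CPM in PDGF- replicates 1, 2 and 3. The lowest PDGF+ library was well above the highest PDGF- library, and the groups did not overlap, as for 18.2% of genes in this direction. The means were 44.1 ± 4.098 and 20.8 ± 2.58 CPM (± SD, n = 3 each), or 1.08 as log2 fold change (standard error 0.17, edgeR adjusted p = 0.0039). Within batch 1 it was 1.16 and within batch 2 it was 1.05. With each library left out in turn the log2 fold change lay between 0.98 and 1.17, and all 6 fits called EGFR. The call was lost when replicates 2 and 3 of each group were summed into 1 library (log2 fold change 1.12, edgeR adjusted p = 0.066).

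ERBB2, the partner receptor, lies at chr16:50821197-50860918 on the plus strand of Mmul_10. It was at 93.9, 132 and 131 CPM in PDGF+ and at 111, 155 and 139 CPM in PDGF-. The groups overlapped, and in both of them replicate 1, the library of batch 1, was the lowest. The means were 119 ± 21.7 and 135 ± 22.3 CPM (± SD, n = 3 each), or -0.18 as log2 fold change with a 95% interval of -0.62 to 0.25 (edgeR adjusted p = 0.54). Under the block the difference of -0.19 passed the threshold (edgeR adjusted p = 0.0068), and with offsets for GC content and exon length added to the block it was -0.01 (edgeR adjusted p = 0.88). The ERBB2 transcript is 59.3% GC, and these offsets differed between the groups by -0.18 on the log2 scale for this gene. In Mmul_10 the gene shares 275 exon bases with MIEN1 on the opposite strand, and the strand setting of the counting is not given in the sources used here.

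The row named ERBB3 matched the row named PA2G4 count for count in all 6 libraries, and the reads of this row are therefore not attributable to ERBB3. PA2G4 encodes a widely expressed growth regulator that is also known as the ERBB3-binding protein EBP1. In Mmul_10, ERBB3 at chr11:55640936-55662914 and PA2G4 at chr11:55663736-55673295 follow each other on the plus strand with 821 bases between them. Their RefSeq transcripts share 0 stretches of 31 bases, out of 6429 in ERBB3 and 2489 in PA2G4. The shared row was at 843, 1059 and 958 CPM in PDGF+ and at 947, 1364 and 1371 CPM in PDGF-, and the groups overlapped. Its log2 fold change was -0.36 with a 95% interval of -0.76 to 0.03 (edgeR adjusted p = 0.18). With the block the value was -0.35 (edgeR adjusted p = 1.5e-06), and without PDGF- replicate 1 it was -0.53 (edgeR adjusted p = 0.021). The within-batch log2 differences were -0.17 (batch 1) and -0.44 (batch 2), and the edgeR interaction had an adjusted p = 0.97. It was the 1 member among the 526 genes under 0.05 before adjustment. None of these values is a measurement of the receptor alone.

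ERBB4, the other neuregulin receptor, was close to absent, with 2, 0 and 2 counts in PDGF+ and 1, 0 and 0 in PDGF-. The ratio of the group totals was 3.21 with an exact 95% interval of 0.318 to 158, from counting error alone, and these few reads do not resolve a difference. Of the receptors with a row of their own, EGFR and ERBB2 were therefore the ones expressed above a few counts.

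Among the ligands, AREG and TGFA were present at a few CPM and neither passed the threshold. AREG, at chr5:59251865-59261796 on the minus strand of Mmul_10, encodes amphiregulin. It had 42, 15 and 23 counts in PDGF+ and 18, 8 and 26 in PDGF-, or 2.84, 1.17 and 1.73 CPM against 1.48, 0.766 and 2.55 CPM. The libraries of both groups were interleaved. Its log2 fold change of 0.27 had a 95% interval of -0.92 to 1.46 (edgeR adjusted p = 0.75). Within batches the log2 difference was 0.92 and -0.20, and the interaction had an edgeR adjusted p = 0.98.

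TGFA, at chr13:38177041-38285024 on the plus strand of Mmul_10, encodes transforming growth factor alpha. It had 27, 20 and 32 counts in PDGF+ and 47, 40 and 24 in PDGF-, or 1.82, 1.56 and 2.40 CPM against 3.86, 3.83 and 2.35 CPM. PDGF- replicate 3 lay just below the highest PDGF+ library, and the other PDGF- libraries lay above all of PDGF+. The log2 fold change was -0.79 (standard error 0.34, 95% interval -1.57 to -0.02), with an edgeR adjusted p = 0.14; this is the member counted as lower before adjustment. It was negative in batch 1 (log2 difference -1.07) and in batch 2 (-0.63). The adjusted p lay between 0.056 and 0.33 over 19 alternatives, so the difference stayed short of the threshold in each of them.

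The neuregulins and the remaining ligands were examined as a second list of 7 genes with ERBB4, of which only NRG1 passed the count filter. NRG1 encodes neuregulin 1. It was at 2.70, 3.36 and 3.53 CPM in PDGF+ and at 7.72, 4.89 and 6.86 CPM in PDGF-. All PDGF- libraries were above all PDGF+ libraries, as for 19.3% of genes in this direction. NRG1 was lower with PDGF, with -1.02 as log2 fold change (standard error 0.27, edgeR adjusted p = 0.034), -1.51 in batch 1 and -0.76 in batch 2. The call was lost without PDGF+ replicate 1 (edgeR adjusted p = 0.085), 2 (0.098) or 3 (0.084), without PDGF- replicate 1 (0.060) or 3 (0.11), and with replicates 2 and 3 summed (0.14).
The other ligand genes were near the limit of detection. NRG2 had 31 counts over the PDGF+ libraries and 16 over the PDGF- libraries, a 1.55-fold ratio (exact 95% interval 0.825 to 3.04). NRG4 had 18 and 16 counts, EPGN 7 and 5, and NRG3 5 and 0. The gene of EGF itself had 0 counts in PDGF+ and 3 in PDGF-. None of these 4 showed a difference at this depth, and exact intervals cover counting error only.

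ERRFI1, the feedback inhibitor of EGFR, changed most among the members. The gene lies at chr1:216496861-216511064 on the plus strand of Mmul_10. It was at 64.8, 49.0 and 50.1 CPM in PDGF+ and at 7.56, 6.13 and 8.72 CPM in PDGF-. The lowest library with PDGF was several times above the highest without it. The groups thus did not overlap, as for 18.2% of genes in this direction. The means were 54.7 ± 8.81 and 7.47 ± 1.30 CPM (± SD, n = 3 each), or 2.87 as log2 fold change (standard error 0.21, edgeR adjusted p = 1.5e-04), which ranked 45 of 11539 genes from the highest. EGFR ranked 407 on the same scale. The log2 difference of ERRFI1 was 3.09 in batch 1 and 2.73 in batch 2. Under all 19 alternatives tried, the summed libraries included, its log2 fold change lay between 2.72 and 2.998 and the edgeR, limma-voom or DESeq2 call was kept.

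Levels were compared between genes after division by exon length in the Mmul_10 RefSeq annotation. In PDGF- the order was ERBB2 (25.0 ± 4.13 CPM per kb, SD, n = 3), ERRFI1 (2.70 ± 0.469), EGFR (2.04 ± 0.254), AREG (1.20 ± 0.674) and TGFA (0.776 ± 0.200). In this group the ranges of ERRFI1 and EGFR overlapped, as did those of EGFR and AREG and of AREG and TGFA, so only ERBB2 stood clear of its neighbour. In PDGF+ the level of ERRFI1 was 19.7 ± 3.18 CPM per kb (SD, n = 3), within the range of ERBB2 at 22.0 ± 4.02. EGFR followed at 4.33 ± 0.403, AREG at 1.44 ± 0.636 and TGFA at 0.448 ± 0.0998 CPM per kb, with no overlap between these neighbours. NRG1 was the lowest in both groups, at 0.251 ± 0.0345 with PDGF and 0.509 ± 0.114 without. Its range overlapped that of TGFA in PDGF-. These levels use the union of exons. Per kb of the longest transcript, NRG1 was at 0.368 CPM with PDGF and 0.746 without, and its range overlapped that of TGFA in both groups.
The balance of the 2 receptors differed between the groups. ERBB2 per kb was 4.395, 5.72 and 5.09 times EGFR per kb in the PDGF+ libraries and 11.6, 12.6 and 12.3 times in the PDGF- libraries. The ratios of the groups did not overlap. ERBB2 itself was not called in the reported fit, and no test was run on the ratio. The GC and length offsets differed between the groups by 0.11 (EGFR) and -0.18 (ERBB2) on the log2 scale, and the ratio does not include them.

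**Figure D2:**
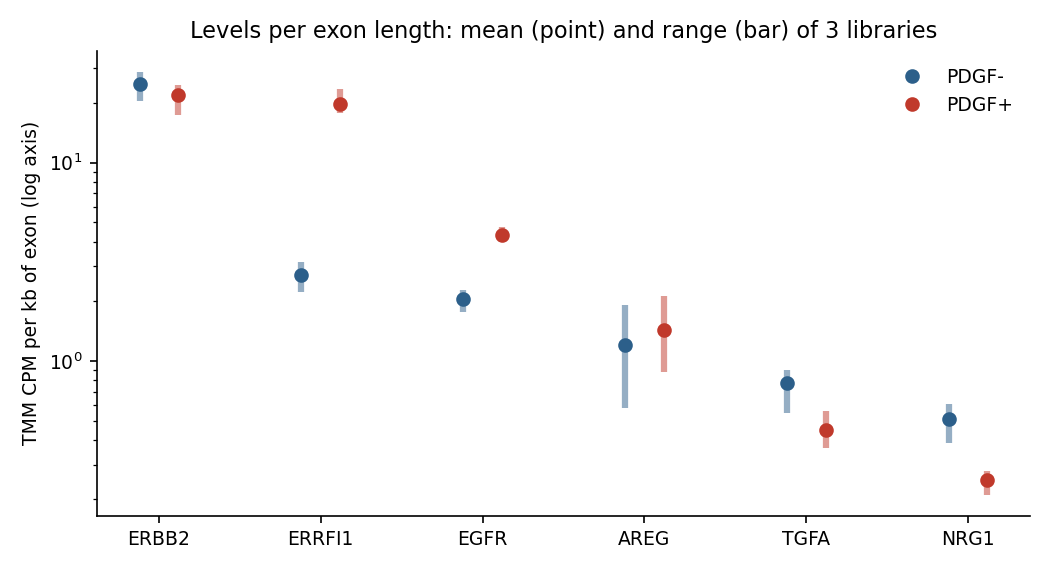
TMM CPM per kb of exon on a log axis, with the mean (point) and range (bar) of 3 libraries in each group. In PDGF- the range of ERRFI1 overlaps only the upper end of that of EGFR (means 2.70 and 2.04 CPM per kb). In PDGF+ the range of ERRFI1 lies within that of ERBB2 (means 19.7 and 22.0 CPM per kb).

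Genes that act on ERBB receptors or respond to them were grouped by role into 4 further lists. The lists were drawn up with earlier results of these data known. The shares of all genes beside them are given for scale and do not test an enrichment. Over all genes tested the median log2 fold change was 0.02. Genes that restrain receptors or carry them to degradation had a median of 0.37 over 18 tested genes, with 4 higher and 0 lower, beside 7.61% and 10.7% of all genes. With the block 10 were higher and 2 lower, beside 31.1% and 29.0%, and with replicates summed 1 and 0, beside 1.72% and 4.06%. LRIG1, a membrane protein that promotes the loss of ERBB receptors, was at 15.8, 18.7 and 21.2 CPM in PDGF+ and at 3.94, 4.79 and 4.61 CPM in PDGF-, 2.06 as log2 fold change (standard error 0.21, edgeR adjusted p = 5.8e-04). CBL, the ubiquitin ligase that marks activated EGFR for degradation, was at 51.0 ± 3.90 and 25.0 ± 3.30 CPM (± SD, n = 3 each), or 1.03 as log2 fold change (edgeR adjusted p = 0.0043). SOCS5, an inhibitor of cytokine and EGFR signaling, had 0.99 as log2 fold change (edgeR adjusted p = 0.0032). PTPRK, a receptor phosphatase that acts on EGFR and was named after its value was seen, had one of 0.95 (edgeR adjusted p = 0.0056). The related ubiquitin ligase CBLB was at 39.8 ± 7.26 CPM in PDGF+ and 39.1 ± 9.35 in PDGF- (± SD, n = 3 each). With replicates 2 and 3 summed, LRIG1 stayed past the threshold (edgeR adjusted p = 0.017), and CBL (0.080), SOCS5 (0.065) and PTPRK (0.093) did not.

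The genes of ligand release had a median log2 fold change of 0.30 over 9 tested genes, with 2 higher and 0 lower (7.61% and 10.7% of all genes). With the block 8 were higher and 1 lower (31.1% and 29.0% of all genes), and with replicates summed 0 and 0 (1.72% and 4.06%). ADAM17, the main protease for AREG and TGFA, was at 40.6 ± 2.70 CPM in PDGF+ and 32.9 ± 4.57 in PDGF- (± SD, n = 3 each), and passed the threshold with the block (edgeR adjusted p = 0.0070) but not without it (0.23). ADAM12 had 0.90 as log2 fold change (edgeR adjusted p = 0.0029) and ADAM19 one of 1.12 (edgeR adjusted p = 0.033); both are metalloproteases reported to cleave ligand precursors. ADAM19 kept its call only without PDGF+ replicate 1 when single libraries were left out, at an edgeR adjusted p of 0.013 to 0.11 over the 6 fits. With replicates 2 and 3 summed, ADAM12 had an edgeR adjusted p = 0.082.
Adaptors and effectors downstream of the receptors had a median of 0.17 over 22 tested genes, with 1 higher and 1 lower, no larger a share than the 7.61% and 10.7% of all genes. With the block 8 were higher and 6 lower, beside 31.1% and 29.0% of all genes, and with replicates summed 0 and 0, beside 1.72% and 4.06%. PTPN11, the phosphatase that passes the signal to RAS, had 0.53 as log2 fold change (edgeR adjusted p = 0.027), and STAT5A, a transcription factor, one of -0.98 (edgeR adjusted p = 0.033). The call of PTPN11 was lost with upper-quartile factors, and both calls with replicates 2 and 3 summed. With single libraries left out, PTPN11 kept its call only without PDGF- replicate 1, and STAT5A only without PDGF+ replicate 2 or PDGF- replicate 1. The adaptor GRB2 was at 169 ± 12.5 CPM in PDGF+ and 141 ± 9.08 in PDGF- (± SD, n = 3 each), with an edgeR adjusted p = 0.20, and 1.8e-04 with the block.

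Genes that respond to ERK, the kinase downstream of ERBB and of PDGF receptors alike, had a median log2 fold change of 1.06 over 12 tested genes, with 9 higher and 1 lower, beside 7.61% and 10.7% of all genes. With the block 10 were higher and 1 lower, beside 31.1% and 29.0% of all genes. With replicates summed 4 and 0 were, beside 1.72% and 4.06%. This list too was chosen with earlier results of these data known, so its share does not test an enrichment. The 3 with the largest rise were LIF, CCND1 and SPRY1. LIF, a cytokine gene, was at 133 ± 17.3 CPM in PDGF+ and 10.8 ± 2.15 in PDGF- (± SD, n = 3 each), or 3.63 as log2 fold change (edgeR adjusted p = 5.7e-05). CCND1, which encodes cyclin D1, had one of 1.63 (edgeR adjusted p = 2.7e-04), and SPRY1, a feedback inhibitor of RAS signaling, one of 1.26 (edgeR adjusted p = 0.0029). EPHA2, an ephrin receptor that ERK induces in other cells, was lower, with -1.27 as log2 fold change (edgeR adjusted p = 0.016). Its call was lost without PDGF+ replicate 3 (edgeR adjusted p = 0.064), without PDGF- replicate 2 (0.066) or 3 (0.066), and with replicates 2 and 3 summed (0.12).

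**Figure D3:**
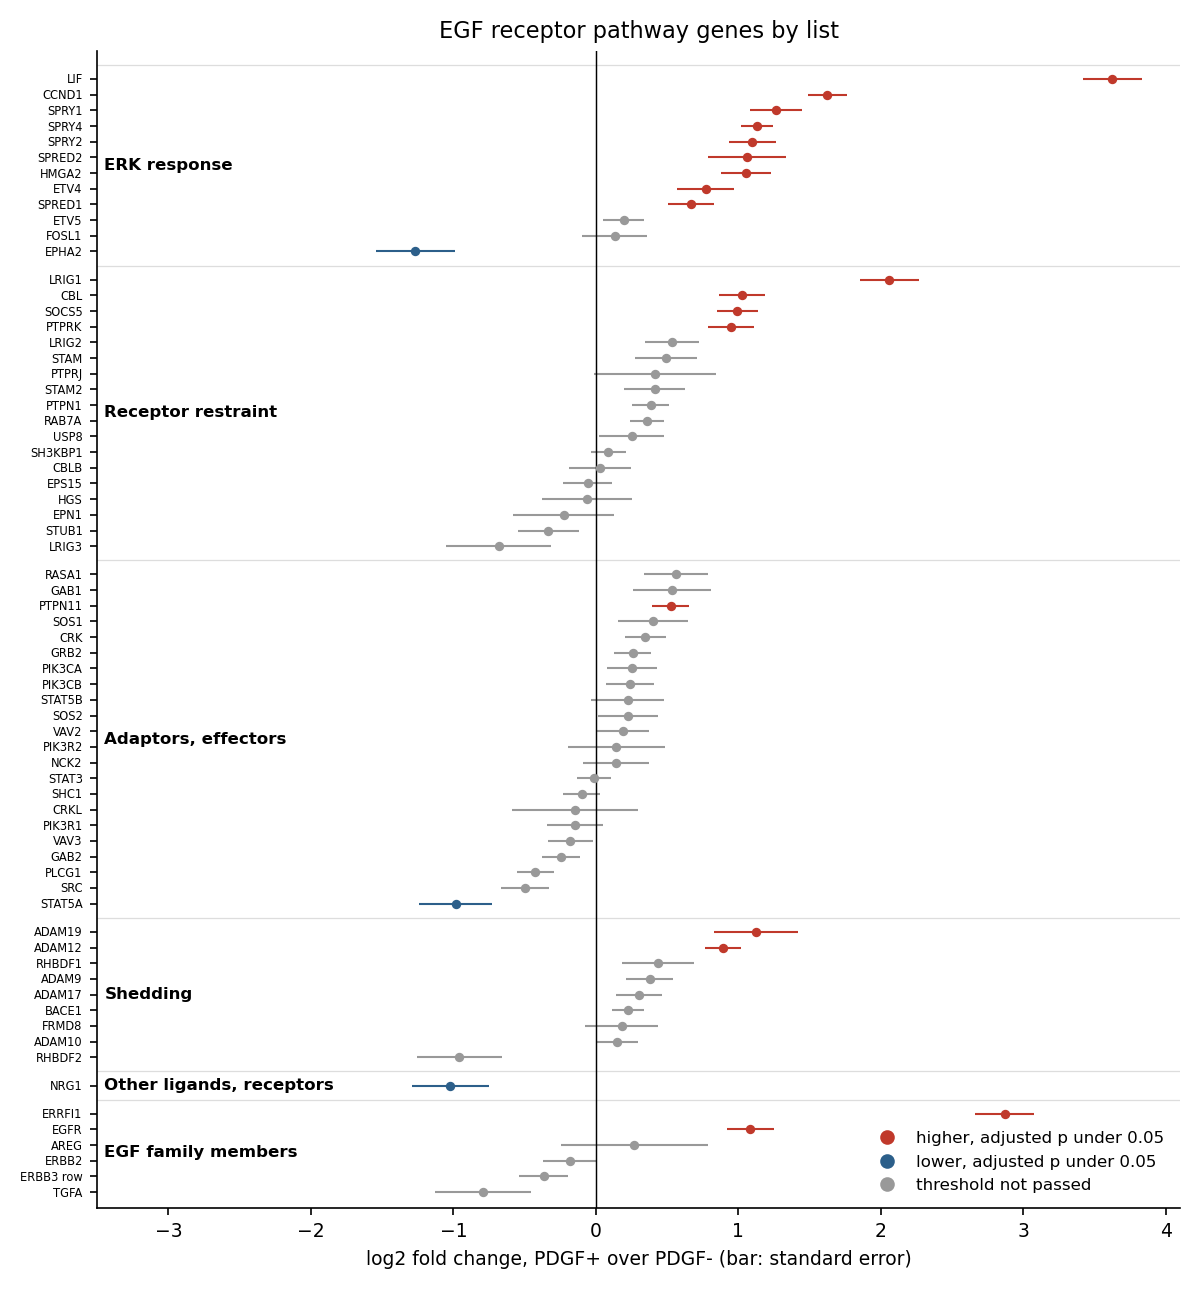
Log2 fold change of PDGF+ over PDGF- with its standard error for each tested gene, grouped by list and coloured by the edgeR call. The ERK response list lies farthest to the right (median 1.06), and ERRFI1 (2.87) and LRIG1 (2.06) lie apart from the rest of their lists. The lists were chosen with earlier results of these data known.

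The genes whose pattern over the 6 libraries was most like that of EGFR, by Pearson correlation of log2(CPM + 0.1) among 10306 genes with a symbol and an average log2 CPM of at least 1, were HMGA1 (r = 0.998), TNS1 (0.998) and ZBED4 (0.997). For ERRFI1 they were BDNF (r = 0.997), ZNF365 (0.997) and TUBB (0.996). The 6 points share their groups and batches, so these correlations describe the split between PDGF+ and PDGF- before anything else. BDNF, a neurotrophin gene, was at 18.6 CPM with PDGF and 6.45 CPM without, and HMGA1, a chromatin protein gene, at 73.5 and 23.5 CPM.

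The cell types behind these values were checked with marker lists, since in bulk samples fewer cells of a type and less RNA per cell cannot be told apart. Stromal and peritubular myoid markers, with all 11 genes analysed, summed to 11510 to 16660 CPM in PDGF+ and to 11060 to 13700 CPM in PDGF-, most of it from COL1A1 and COL1A2. Their median log2 fold change was nevertheless -0.54, with 8 of 11 negative, 0 called higher and 3 called lower, beside 7.61% and 10.7% of all genes. The 3 were DES (34.4 CPM in PDGF- and 3.55 in PDGF+, edgeR adjusted p = 1.5e-04) and ACTA2 (317 and 139 CPM, edgeR adjusted p = 6.0e-04), both of muscle-like cells, and PDGFRA (812 and 550 CPM, edgeR adjusted p = 0.044), whose row is identical to that of FIP1L1. Of 17 germ cell markers 12 were analysed, and they summed to 183 to 227 CPM in PDGF+ and 590 to 941 CPM in PDGF-. Among these, NANOS2 and STRA8 were at 0 in every library, MAGEA4 had 1 count in all, and GFRA1, ZBTB16, SALL4 and DAZL were below 1.3 CPM in every library. DDX4, a pan-germ cell marker, had 9, 2 and 2 counts in PDGF+ and 18, 38 and 13 in PDGF-. The other 4 were well above these levels. ID4 was at 127 to 135 CPM in PDGF+ and 148 to 177 CPM in PDGF-, FGFR3 at 7.16 to 17.8 and 25.9 to 81.8 CPM, TNP1 at 25.3 to 38.4 and 205 to 346 CPM, and TNP2 at 22.3 to 36.8 and 207 to 333 CPM. Most germ cell markers were thus close to absent, while COL1A1 was at 4088 to 8241 CPM in PDGF+ and 2723 to 5422 CPM in PDGF-. The EGF family values therefore cannot be assigned to SSCs. Of 6 epithelial markers 5 were analysed, and they summed to 14.5 to 22.1 CPM in PDGF+ and 43.0 to 58.5 CPM in PDGF-. Sertoli markers, 5 of 8 analysed, spanned 110 to 142 CPM and 93.1 to 144 CPM, nearly all from GATA4 (107 to 139 and 88.0 to 139 CPM). WT1, INHA and FSHR were at a few CPM or less, and FATE1 had 0 counts in PDGF+ and 14, 17 and 2 in PDGF-. Leydig markers, 7 of 7, spanned 265 to 333 CPM and 232 to 269 CPM, nearly all from the STAR row (257 to 322 and 215 to 254 CPM), which is identical to that of LSM1 and so not attributable to STAR. INSL3, CYP11A1 and LHCGR were below 1 CPM in every library, and IGF1 was called lower (log2 fold change -1.55, edgeR adjusted p = 0.014). Endothelial markers, 4 of 4, spanned 7.96 to 10.8 CPM and 6.65 to 9.77 CPM. Immune markers, 5 of 6, spanned 16.4 to 18.6 CPM and 11.3 to 17.7 CPM, nearly all from CD68 (14.1 to 17.3 and 10.1 to 14.5 CPM). PTPRC and CD3E were at 0 in every library. Called markers of the germ cell (4 of 6 tested), epithelial (3 of 4) and stromal and myoid (3 of 11) lists were thus lower with PDGF, as NRG1 was. Over all genes 10.7% were called lower. The part of these markers in the EGF family results was not tested.

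**Figure D4:**
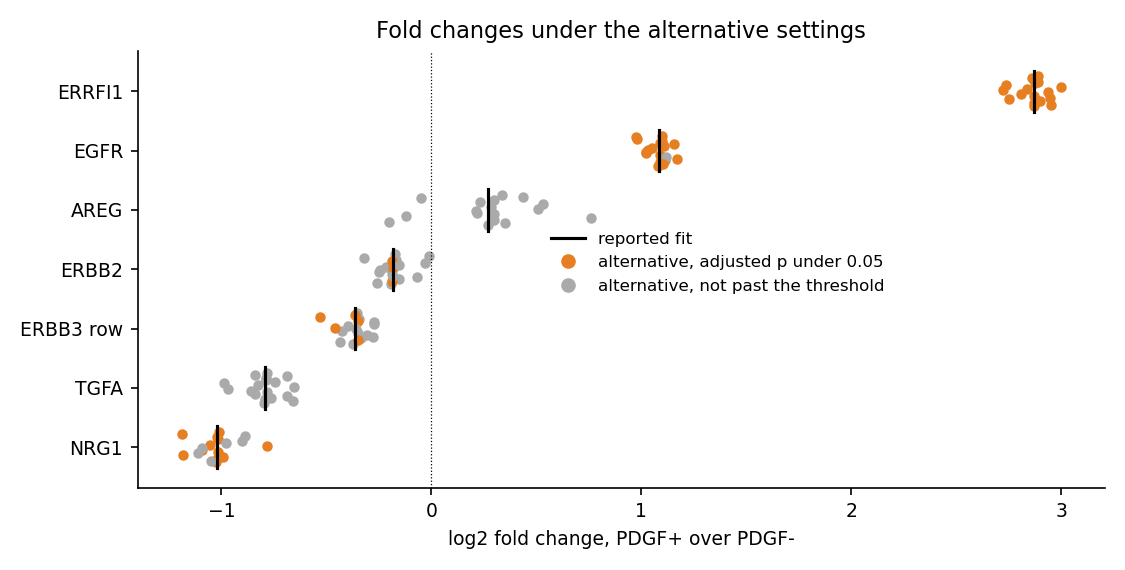
Log2 fold change of PDGF+ over PDGF- for the members and NRG1, with a black line for the reported fit and a point for each alternative that refits the data, coloured by whether its adjusted p was under 0.05. The points of ERRFI1 and EGFR lie close to their lines at 2.87 and 1.08, and those of AREG fall on both sides of 0.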

How the data were processed

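Per the labels, the authors' processing notes name fastp, HISAT2 2.1.0, SAMtools and featureCounts 2.0.1 with the builds Mmul_10 and Mmul_8.0.1, without a role for either build; annotation and strand setting are not given in the sources used here. The deposited values are read as estimated counts per gene that the authors made with the tools above, without normalization: 34 values of 13 genes, none of them a member, were not whole and all were rounded. Gene positions and exon lengths come from RefSeq annotation release 103 of Mmul_10, which may not be the build behind the counts. Rows with identical counts among the listed genes, each with at least 20 counts in total, were ERBB3 and PA2G4, ADAM9 and ADAM32, CRKL and AIFM3, PDGFRA and FIP1L1, STAR and LSM1, and VWF and ANO2.

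Counts were filtered with filterByExpr, scaled by TMM and tested in edgeR 4.0.16 (R 4.3.3) with the quasi-likelihood test, without a block; 95% intervals use its t distribution. Alternatives used DESeq2 1.42.0, limma-voom (limma 3.58.1), other scalings, filters and sample sets, a batch term and the block. Same-numbered libraries share a batch, and their deviations from the group means correlated at r = 0.73, 0.35 and 0.37; crossing replicates 2 and 3 gave 0.39 and 0.36. The correlations thus follow the batch, and the numbers were treated as pairs because they share it. Log2 differences within a batch add 0.5 counts. The steps were tested on simulated counts. Members and lists were chosen with earlier results of these data known. Named genes were the members, the other ligands and receptors, and up to 3 called genes in each direction of each pathway list, with the 3 genes most correlated with each called member. PTPRK, CBLB, ADAM17 and GRB2 were added after their values were seen.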

Additional observations from a re-analysis of the deposited data

How the results depend on the processing

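ERRFI1 kept its direction and call under all 19 alternatives, and EGFR under 18, with a log2 fold change of 0.98 to 1.17; the exception was the summing of replicates 2 and 3, after which 1 member was called higher in place of 2. Members called lower numbered 0 as reported, 2 when blocking on replicate number, 2 with batch as a term and 2 in batch 2 alone. They numbered 1 with the block plus GC and length offsets, and 0 to 1 with single libraries left out. Where 2 were lower they were ERBB2 and the ERBB3 row. Where 1 was lower it was the ERBB3 row, which is not attributable to ERBB3. Over the 5 pathway lists, with 1, 9, 22, 18 and 12 genes tested, 16 genes were higher and 3 lower, beside 7.61% and 10.7% of all genes. These numbers were 36 and 11 with the block (31.1% and 29.0% of all genes). They were 35 and 11 with batch (3604 and 3387 of 11539 genes), and 31 and 9 in batch 2 alone (26.2% and 26.6%). With the block and offsets they were 33 and 9 (35.1% and 23.1%), and with replicates summed 5 and 0 (1.72% and 4.06%). With single libraries left out they were 11 to 17 and 0 to 5. Upper-quartile factors gave 6 lower, and an adjusted p under 0.01 gave 0 lower. AREG changed sign in batch 2 alone (-0.20) and with single libraries left out (-0.12 to 0.76). The cause of these shifts was not tested. Over all genes 2108 were called, against 6934 with the block, 6991 with batch, 6126 in batch 2 alone, 6717 with the offsets, 693 with replicates summed and 1168 to 3010 with single libraries left out. The block changed the calls of ERBB2, the ERBB3 row, ADAM17 and GRB2, and of no other tested member, pathway gene with values in the text, or gene most correlated with EGFR or ERRFI1. AREG could not be fitted with at least 10 counts in every library. Depth limits what ERBB4, EGF, EPGN, NRG3 and NRG4 can show, with at most 18 counts over the libraries of a group.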
